A study of Rattus norvegicus with 24 samples.

Results

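Expression of 8 genes that make, load, break down and sense γ-aminobutyric acid (GABA), or set the chloride gradient it acts on, was compared in the brains of rat pups on embryonic day 18. The genes were taken by symbol from a table of 17420 genes, and all 8 were found. They are Gad1 and Gad2, Slc32a1, Abat, Gabbr1 and Gabbr2, Slc12a2 and Slc12a5. The tissue was hippocampus and neocortex from Sprague-Dawley pups, in 4 groups of 6 pups, each made up of 3 pups from each of 2 litters. Dams of the Saline group were injected with saline on gestational day 17, dams of the MAM group with methylazoxymethanol acetate (MAM, a DNA-alkylating agent) at 22 mg/kg, and dams of the Poly I:C group with polyinosine:cytosine (Poly I:C, a synthetic double-stranded RNA) at 7.5 mg/kg, all 18 hours before the tissue was taken. Dams of the Low Protein group ate a diet with 6.1% protein from gestational day 11 to 18, against 20.3% in the control diet of equal calories. The control diet, given over the same days, is taken here to be that of the Saline group. Which diet was eaten by dams injected with MAM or Poly I:C, and whether the Low Protein dams were injected, is not given in the sources used here. The treatment was given to the dam, so each group rests on 2 treated dams, and pups of a litter share theirs. In bulk tissue, fewer cells of a type and less RNA per cell cannot be told apart.

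GABA is made from glutamate by the 2 glutamate decarboxylases, GAD67 (Gad1), found throughout the neuron, and GAD65 (Gad2), held mostly at nerve endings. The vesicular transporter VGAT (Slc32a1) loads it into synaptic vesicles, and GABA transaminase (Abat) breaks it down. The GABA-B receptor is a pair of proteins, one that binds GABA (Gabbr1) and one that couples to G proteins (Gabbr2). GABA-A receptors pass chloride, and the direction of that current is set by 2 cotransporters, the importer NKCC1 (Slc12a2) and the neuron-specific exporter KCC2 (Slc12a5). In the fetal forebrain, NKCC1 is known to dominate and KCC2 to be low, and the balance turns over after birth. GABAergic neurons of the cortex are born below it, in the ganglionic eminences next to the future striatum, and migrate in.

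The promoters of 4 genes, picked to stand for synthesis, loading, reception and chloride export, are shown here as a description. Each line holds the 250 bases before the annotated start, from RefSeq on GRCr8. The capitals mark GGGCGG, the core of the GC box (either strand, so also CCGCCC), and TATAAA, the TATA box (either strand). The 2 motifs do not overlap in these sequences.
Gad1, GRCr8 chr3:75777202-75777451, plus strand: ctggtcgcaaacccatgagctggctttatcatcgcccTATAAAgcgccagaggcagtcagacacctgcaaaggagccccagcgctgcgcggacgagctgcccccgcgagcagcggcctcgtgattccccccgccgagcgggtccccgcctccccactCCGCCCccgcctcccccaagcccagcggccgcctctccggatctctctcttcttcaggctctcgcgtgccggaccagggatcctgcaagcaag
Slc32a1, GRCr8 chr3:167686995-167687244, plus strand: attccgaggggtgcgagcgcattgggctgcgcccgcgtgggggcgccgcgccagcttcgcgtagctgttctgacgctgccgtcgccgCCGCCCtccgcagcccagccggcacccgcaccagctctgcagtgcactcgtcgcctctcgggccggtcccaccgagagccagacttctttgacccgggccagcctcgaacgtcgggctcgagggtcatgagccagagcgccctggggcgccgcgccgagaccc
Gabbr2, GRCr8 chr5:66083696-66083945, minus strand: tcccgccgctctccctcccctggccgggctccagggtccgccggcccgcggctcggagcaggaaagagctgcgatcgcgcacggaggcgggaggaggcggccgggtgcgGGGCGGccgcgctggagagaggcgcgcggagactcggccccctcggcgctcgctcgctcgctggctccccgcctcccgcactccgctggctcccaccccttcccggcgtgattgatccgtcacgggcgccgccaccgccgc
Slc12a5, GRCr8 chr3:174115583-174115832, plus strand: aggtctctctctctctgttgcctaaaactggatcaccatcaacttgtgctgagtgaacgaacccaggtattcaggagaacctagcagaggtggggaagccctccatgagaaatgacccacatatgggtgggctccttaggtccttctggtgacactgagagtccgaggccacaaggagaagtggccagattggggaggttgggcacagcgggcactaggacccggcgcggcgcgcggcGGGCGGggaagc
Of the 8 genes, 7 had a promoter in the RefSeq table, and Abat did not. GGGCGG was present before the start of 6 of them, namely Gad1, Slc32a1, Gabbr1, Gabbr2, Slc12a2 and Slc12a5, against 30.5% of the 33469 promoters searched. TATAAA was present before Gad1 alone among the 7, against 12.9% of all promoters. Gad2 held neither motif. Both motifs sit in the Gad1 sequence above, while the lines for Slc32a1, Gabbr2 and Slc12a5 each hold 1 GC box. Slc12a2, whose values did not follow those of the other members, also held GC boxes, 3 of them. GC content before the start ran from 59.2% (Slc12a5) to 83.2% (Slc12a2), with a median of 51.2% over all promoters. These matches describe letters and do not show that a factor binds. Whether they bear on how the members varied from pup to pup was not tested.

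The deposited values are normalized expression levels that the authors give as TPM, a unit scaled for gene length and library size, with an offset of 0.0001, and were taken to log2 for all tests. They fall with the length of a gene on the genome, so levels were compared between pups for 1 gene and never between genes. All 8 genes passed the filter on low values, as did 13371 genes in all. The steps between the lowest values put the depth at an estimated 25.03 to 65.03 M reads per pup (M, mega; median 37.7 M), with a lower median in Poly I:C (30.9 M) than in Saline (34.1 M), MAM (42.5 M) or Low Protein (44.4 M). On that estimate Abat was measured with 263 to 798 reads per pup, the fewest of the members, and Gabbr1 with 12066 to 30975. Counting error is therefore small beside the spread between pups for most members. The 9 measured markers of cortical excitatory neurons summed to 136 to 301 TPM, and the 12 striatal markers to 6.44 to 19.7 TPM, sums that are given for comparison between pups and not between lists. Saline pup 2.1 (the first number is the litter, the second the pup) stood apart, with the highest striatal marker score and the lowest cortical excitatory score of the 24 pups.

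In 7 of the 8 genes the Saline group had the highest mean, and Slc12a2 was the exception, with its highest mean in Poly I:C. Low Protein had the lowest mean of Gad1, Gad2, Slc32a1 and Slc12a5, MAM that of Abat, Gabbr1 and Slc12a2, and Poly I:C that of Gabbr2. None of the 8 genes passed the limma test after Benjamini-Hochberg adjustment over all genes in any comparison with saline, where the lowest adjusted p of a member was 0.471 in Poly I:C, 0.509 in MAM and 0.686 in Low Protein. The same test called 0% of all genes in Low Protein as well as in Poly I:C, and 0.015% in MAM. With no adjustment (limma p under 0.05), 5 of the 8 members were lower with Low Protein (background 7.08% of all genes in either direction, 4.43% lower), 2 with MAM (9.79%, 7.64% lower) and 1 with Poly I:C (9.2%, 5.35% lower). By the exact permutation test of each gene, 4, 3 and 0 members had an unadjusted p under 0.05, against 9.17%, 13.1% and 7.73% of all genes. No member separated any treated group from Saline without overlap, which 0.673%, 0.875% and 0.434% of all genes did. An F-test for any difference among the 4 groups also called no member, with 12.3% of all genes under an unadjusted p of 0.05 and a lowest member p of 0.104 (Slc12a2). The unadjusted calls rested on single pups. Without Saline pup 2.1 they were 0 with Low Protein or MAM and 1 with Poly I:C, and without Low Protein pup 1.1 they were 0 in Low Protein. Over all genes, leaving out Saline pup 2.1 gave 645 unadjusted calls with Low Protein (947 with all pups), 1803 with MAM (1309) and 879 with Poly I:C (1230), so in MAM the count over all genes was higher while that of the members was 0. The Low Protein count was also 1 without Low Protein pup 2.1, 2 without Saline pup 1.3, and 3 without Low Protein pup 1.3 or Saline pup 2.2. The MAM count was 0 without Saline pup 1.3 or MAM pups 1.3, 2.2 or 2.3, and 1 without Saline pups 1.2 or 2.2 or MAM pups 1.2 or 2.1. The Poly I:C count was 0 without Saline pups 1.3 or 2.2 or Poly I:C pups 2.2 or 2.3, and 2 without Poly I:C pups 1.1 or 1.3.

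**Figure D1:**
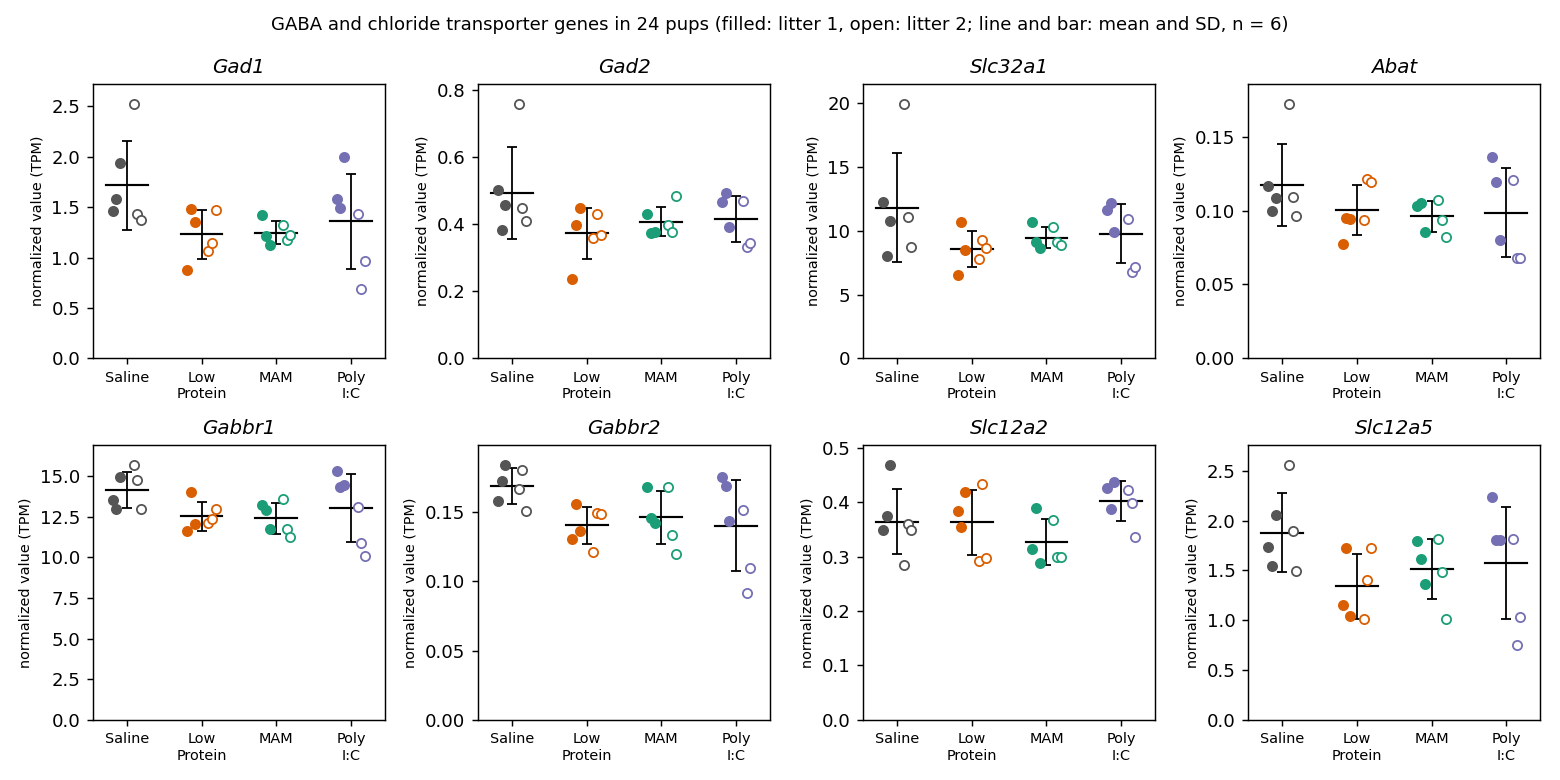
Normalized value (TPM, linear axis from 0) of each gene in each of the 24 pups, by group, with litter 1 as filled and litter 2 as open points and the group mean and SD (n = 6). One open Saline point (pup 2.1) lies above all others for Gad1, Gad2, Slc32a1, Abat and Slc12a5, and by a small margin for Gabbr1. The 2 open Poly I:C points of pups 2.2 and 2.3 lie low for most genes.

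Gad1, the enzyme of the bulk of GABA synthesis, had Saline values from 1.38 to 2.52 TPM with a median of 1.52. Low Protein pups ran from 0.875 to 1.48 (median 1.25), MAM pups from 1.12 to 1.43 (median 1.22) and Poly I:C pups from 0.685 to 2.00 (median 1.46). All 6 Low Protein and all 6 MAM pups lay below the Saline median, yet each group overlapped the lower Saline pups. Its mean was 1.72 ± 0.444 TPM for Saline, 1.23 ± 0.244 for Low Protein, 1.25 ± 0.112 for MAM and 1.36 ± 0.467 for Poly I:C (SD, n = 6). Against Saline the log2 fold change was -0.47 for Low Protein, -0.43 for MAM and -0.39 for Poly I:C, each with a standard error of 0.205. Exact two-sided permutation p-values were 0.0303, 0.00433 and 0.208, where the number of splits of 12 pups allows no p below 0.00216. Without Saline pup 2.1 the changes were -0.35, -0.31 and -0.27.

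Gad2, the decarboxylase of nerve endings, ran from 0.382 to 0.757 TPM in Saline (median 0.452), and 0.757 was pup 2.1. Low Protein pups held 0.236 to 0.449 (median 0.382), MAM pups 0.374 to 0.485 (median 0.388) and Poly I:C pups 0.333 to 0.491 (median 0.429). The groups overlapped over most of their range, and the single highest and lowest values belonged to Saline pup 2.1 and Low Protein pup 1.1. In the same order of groups, log2 fold changes of -0.39, -0.24 and -0.22 (standard error 0.159) came with exact permutation p-values of 0.0519, 0.121 and 0.245. Leaving out Saline pup 2.1 brought them to -0.26, -0.11 and -0.091.

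For Slc32a1, the vesicular GABA transporter, Saline pups spread from 7.98 to 19.9 TPM (median 10.9). The other groups overlapped the lower part of that range, and 2 Low Protein and 2 Poly I:C pups lay below it, at 6.52 to 10.7 for Low Protein, 8.63 to 10.7 for MAM and 6.77 to 12.2 for Poly I:C. Its Saline mean of 11.8 ± 4.28 TPM had an SD that was larger than the gap to any treated mean, which were 8.56 ± 1.41, 9.46 ± 0.842 and 9.75 ± 2.30 (SD, n = 6). The log2 fold changes of -0.41, -0.26 and -0.24 (standard error 0.183) became -0.25, -0.091 and -0.080 without Saline pup 2.1. Exact permutation p-values with that pup included were 0.0693, 0.225 and 0.357.

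Abat, the enzyme that removes GABA, was the least deeply measured member. Its Saline values ran from 0.0966 to 0.172 TPM, and 5 of the 6 pups were at or below 0.117. Low Protein held 0.0775 to 0.121, MAM 0.0824 to 0.107 and Poly I:C 0.0676 to 0.136. No comparison passed even the unadjusted threshold, with log2 fold changes of -0.22, -0.26 and -0.28 (standard error 0.174), and -0.098, -0.15 and -0.16 without Saline pup 2.1.

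The subunits of the GABA-B receptor had the tightest Saline values. Gabbr1, which binds the ligand, spanned 13.0 to 15.7 TPM among Saline pups, 11.6 to 14.1 among Low Protein pups, 11.2 to 13.6 among MAM pups and 10.1 to 15.3 among Poly I:C pups. In Low Protein 5 of 6 pups, and in MAM 4 of 6, lay below the lowest Saline pup. Its differences from Saline were -0.18, -0.19 and -0.13 on the log2 scale (standard error 0.0889), and the exact permutation p-values were 0.0216, 0.0260 and 0.279. Gabbr2, which couples to G proteins, spanned 0.151 to 0.184 TPM in Saline (median 0.170), 0.121 to 0.156 in Low Protein (median 0.142), 0.120 to 0.168 in MAM (median 0.144) and 0.0918 to 0.175 in Poly I:C (median 0.147). Here too 5 of 6 Low Protein pups and 4 of 6 MAM pups were below every Saline pup, and the overlap came from the highest treated pups. The fitted log2 changes of -0.27, -0.21 and -0.30 (standard error 0.128) had exact permutation p-values of 0.00433, 0.0455 and 0.0758. Unlike the synthesis genes, Gabbr2 kept its size without Saline pup 2.1, at -0.27, -0.22 and -0.31. Its unadjusted limma p-values in that fit were 0.0616, 0.129 and 0.0374, so the Low Protein call was lost. Gabbr1 stood at -0.15, -0.16 and -0.10 without that pup.

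Slc12a5, the chloride exporter KCC2, ran from 1.49 to 2.55 TPM in Saline (median 1.82), 1.01 to 1.73 in Low Protein (median 1.27), 1.01 to 1.81 in MAM (median 1.55) and 0.753 to 2.24 in Poly I:C (median 1.80). All Low Protein and MAM pups were below the Saline median, and the Poly I:C pups were split, with 4 of 6 below it. Means were 1.88 ± 0.394, 1.34 ± 0.326, 1.51 ± 0.299 and 1.57 ± 0.561 TPM (SD, n = 6). The treated groups differed from Saline by -0.50, -0.31 and -0.33 (log2, standard error 0.229), with exact permutation p-values of 0.0281, 0.102 and 0.301. Without Saline pup 2.1, the highest of the 24, they differed by -0.40, -0.22 and -0.23.

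Slc12a2, the chloride importer NKCC1, was the member without a common direction. Saline pups ran from 0.285 to 0.468 TPM (median 0.355), Low Protein from 0.293 to 0.433 (median 0.370), MAM from 0.289 to 0.390 (median 0.307) and Poly I:C from 0.337 to 0.439 (median 0.411). The Saline and Low Protein means were both 0.364 ± 0.0595, MAM was 0.327 ± 0.0419 and Poly I:C 0.402 ± 0.0370 (SD, n = 6). Relative to Saline, log2 fold changes stood at -0.0040, -0.15 and 0.15 (standard error 0.115), and none passed the unadjusted threshold. Without Saline pup 2.1 they were -0.072, -0.22 and 0.084, and the Poly I:C value lay at 0.024 or 0.28 when 1 of the Saline litters was left out. Between MAM and Poly I:C the log2 difference was -0.30 (exact permutation p = 0.0152), which did not pass after adjustment (limma adjusted p = 0.171), in a contrast where 17.7% of all genes had an unadjusted p under 0.05. No other contrast between 2 treatments reached an unadjusted p under 0.05 for any member.

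**Figure D2:**
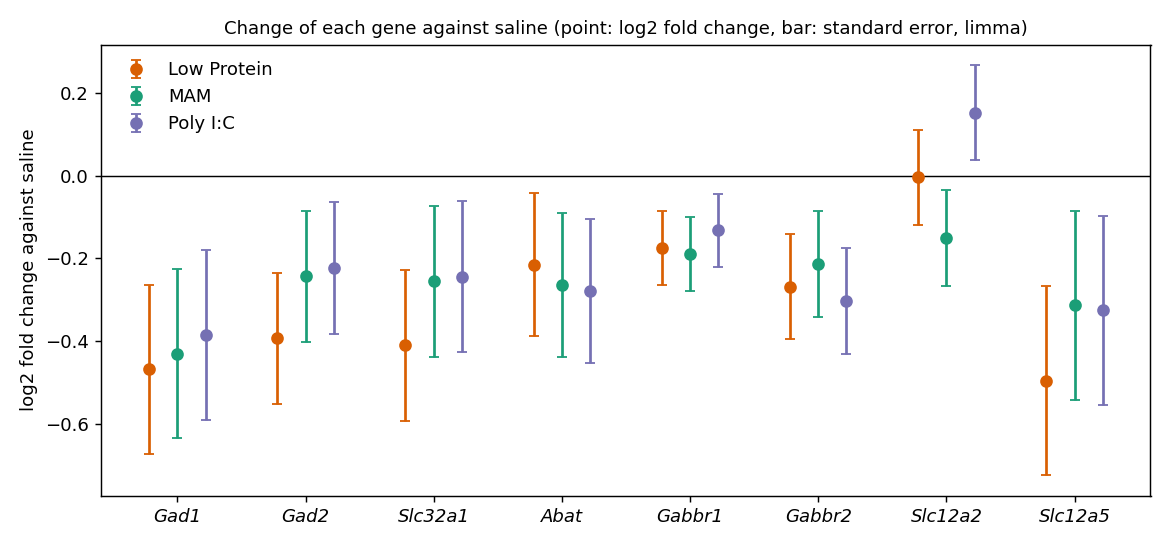
Log2 fold change against Saline of each gene for the 3 treated groups (points, coloured by group), with the limma standard error (bars) and a line at 0. Points of 7 genes lie below 0 in all 3 groups, from -0.50 (Slc12a5, Low Protein) to -0.13 (Gabbr1, Poly I:C), while Slc12a2 lies at -0.0040, -0.15 and 0.15.

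Over the 8 members the median log2 fold change was -0.33 for Low Protein, -0.25 for MAM and -0.26 for Poly I:C, against -0.015, -0.071 and 0.0027 over all genes tested. All 8 members were below 0 in Low Protein, as were 54.9% of all genes. In MAM all 8 were below 0 as well, but so were 70.6% of all genes, and rescaling by the median of ratios moved the member median there to -0.18 with 0 unadjusted calls. In Poly I:C 7 of 8 were below 0, against 49.3% of all genes. The 3 comparisons share the same 6 Saline pups, so a high Saline pup lowers all of them at once. Without Saline pup 2.1 the member medians were -0.25, -0.19 and -0.13.

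The Poly I:C group was made of 2 unlike litters. Relative to the Saline mean, litter 1 lay at 0.0013 for Gad1, -0.0090 for Slc32a1, -0.056 for Gabbr2 and 0.068 for Slc12a5, all on the log2 scale. Litter 2 lay at -0.77, -0.48, -0.55 and -0.72 for the same genes. The gap between the litters (litter 2 minus litter 1) ran from -0.12 for Slc12a2 to -0.79 for Slc12a5 and was negative for all 8 members. Within litter 2 the low values belonged to pups 2.2 and 2.3. Gad1 was 0.685 and 0.962 TPM in them and 1.43 in pup 2.1, and Slc12a5 was 0.753 and 1.03 against 1.82. For Gad1 the litters of the other treated groups were close to each other, at -0.48 and -0.46 in the 2 Low Protein litters and at -0.43 and -0.44 in the 2 MAM litters. This did not hold for every member. Abat lay at -0.38 and -0.052 in the Low Protein litters, and for Slc12a2 the gap between the Low Protein litters (-0.20) was larger than that between the Poly I:C litters (-0.12).

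Since 2 litters against 2 allow no exact p below 0.333, litters were given as values, and the fits without a litter show how far each decides a result. With Poly I:C litter 1 left out, 6 members passed the unadjusted threshold and Gabbr2 alone passed the adjusted one (log2 fold change -0.55, limma adjusted p = 0.0443). In that fit the calls rose over the whole table too, to 2388 of 13371 genes unadjusted (1230 with all pups) and 205 adjusted (0 with all pups). With litter 2 left out, no member passed either threshold and the member median was -0.0039. Markers of maturing neurons differed between the Poly I:C litters on average, but the pups of the litters overlapped. Their mean log2 score relative to Saline was -0.024 in Poly I:C litter 1 and -0.40 in litter 2. Pups 2.2 and 2.3 stood at -0.62 and -0.49, while pup 2.1 stood at -0.085 and pup 1.3 of litter 1 at -0.23. In Low Protein and MAM the same score averaged -0.18 and -0.19. The part of these markers in the differences of the members was not tested.

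**Figure D3:**
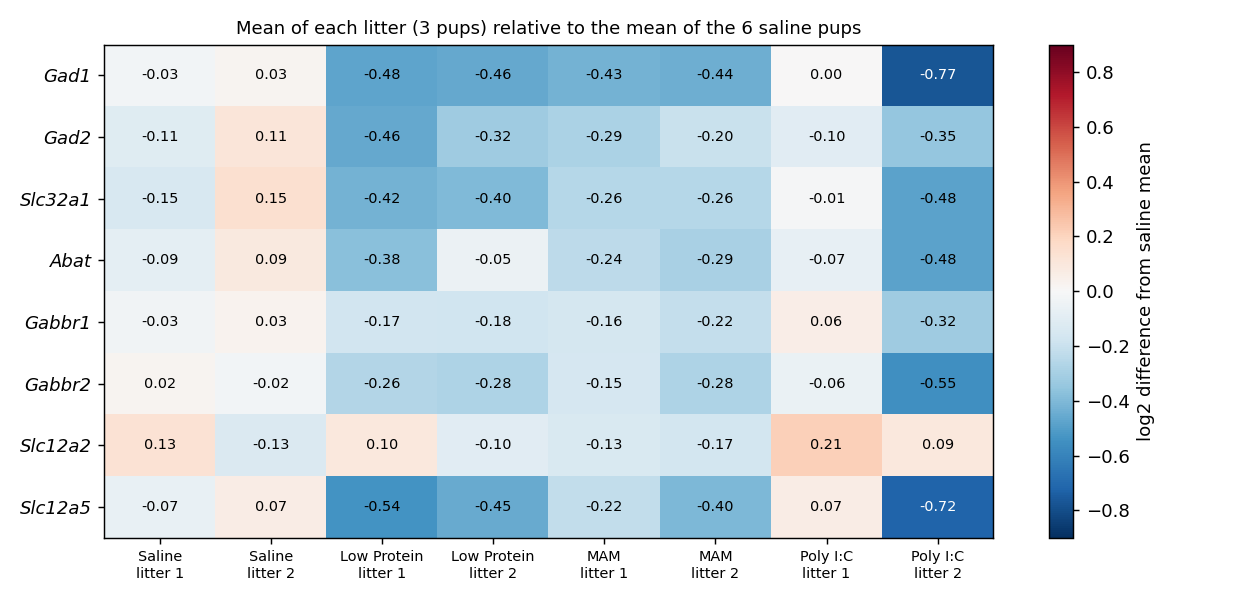
Mean log2 value of each litter (3 pups) minus the mean of the 6 Saline pups, for each gene, as colour and number. Both Low Protein and both MAM litters are negative for 7 genes, Poly I:C litter 1 lies between -0.099 and 0.21, and Poly I:C litter 2 reaches -0.77 for Gad1.

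The balance of RNA of the chloride exporter and importer was followed as the log2 ratio of Slc12a5 to Slc12a2 within a pup. This ratio does not change with the scaling of the pup. It does not measure chloride transport, and the part of the share of neurons in it was not tested. Since the 2 genes differ in length, the ratio can be compared between pups, but its level says nothing of which transporter was more abundant. Saline pups ran from 2.04 to 3.17 (median 2.22), Low Protein pups from 1.31 to 2.54 (median 1.74), MAM pups from 1.76 to 2.51 (median 2.27) and Poly I:C pups from 0.918 to 2.39 (median 2.07). In Low Protein 4 of 6 pups, and in Poly I:C 3 of 6, were below the lowest Saline pup, while MAM lay mostly within the Saline range. Differences from Saline were -0.49 for Low Protein (exact permutation p = 0.0736), -0.16 for MAM (exact p = 0.511) and -0.48 for Poly I:C (exact p = 0.130), and none passed after adjustment over the 3 comparisons (0.195, 0.511 and 0.195). In Poly I:C the difference was -0.81 with litter 2 alone and -0.14 with litter 1 alone. Saline pup 2.1 had the highest ratio of all pups, and without it the differences were -0.33, -0.0016 and -0.32.

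**Figure D4:**
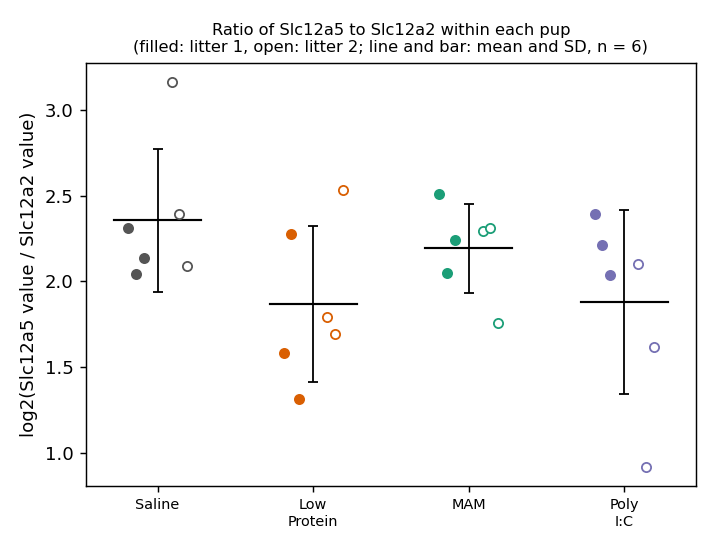
Log2 ratio of Slc12a5 to Slc12a2 in each pup by group, with litter 1 filled, litter 2 open, and the mean and SD (n = 6). Group means are 2.36 (Saline), 1.87 (Low Protein), 2.19 (MAM) and 1.88 (Poly I:C), with 1 Saline pup at 3.17 and 1 Poly I:C pup at 0.918.

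Pups that were high in one member tended to be high in the others, apart from Slc12a2. These relations were taken over 24 pups after the group mean was subtracted from each log2 value, as 60 relations in 1 family, each with a permutation test of 100000 resamples that treats pups as independent. Among the 21 pairs without Slc12a2, Pearson's r ran from 0.37 to 0.90 with a median of 0.77, and 20 of 21 passed after adjustment. The pair that did not was Gad2 with Gabbr2 (r = 0.37, rho = 0.43, permutation p = 0.0744 and 0.0393, adjusted p = 0.109 and 0.0561). Gabbr1 and Slc12a5 were the closest pair, with r = 0.90 and rho = 0.88 (permutation p = 1e-05 for both, the smallest that the resamples allow, adjusted p = 3.16e-05 and 5e-05). Without the 2 pups farthest from the median of Gabbr1 r was 0.90, and after subtracting litter means it was 0.86. Over the 7 pairs with Slc12a2, r ran from -0.13 to 0.35 and none passed, with a lowest adjusted p for r of 0.133. The share of all gene pairs that would pass was not computed, and a high r was not particular to the members. Among 12650 genes ranked by r with Gad1, Gabbr2 (r = 0.71) stood at 449 and Gad2 (r = 0.67) at 607.

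The members also followed markers of cell types to different degrees, and no list belonged to 1 member alone. Gad2 followed the 12 striatal markers, with r = 0.92 and rho = 0.86 (permutation p = 1e-05 and 1e-05, adjusted p = 3.16e-05 and 5e-05), and r was 0.84 without the 2 pups farthest from the median of Gad2 and 0.92 within litters. Gabbr2 followed the 10 markers of maturing neurons, with r = 0.94 and rho = 0.91 (permutation p = 1e-05 and 1e-05, adjusted p = 3.16e-05 and 5e-05). Its r with those markers was 0.90 without its 2 farthest pups and 0.91 within litters. Other members followed the maturing neuron markers too, namely Gabbr1 (r = 0.87), Slc12a5 (0.85), Abat (0.79), Gad1 (0.75), Slc32a1 (0.69) and Gad2 (0.54). Gad1 had a lower r with the interneuron markers (0.53). With the striatal markers Gabbr2 had r = 0.35 and rho = 0.43 (permutation p = 0.0893 and 0.0348, adjusted p = 0.128 and 0.0509). Slc32a1 followed the 13 measured interneuron markers (r = 0.81, rho = 0.76, permutation p = 1e-05 and 3e-05, adjusted p = 3.16e-05 and 0.0001) with r = 0.81 without its 2 farthest pups and within litters. It followed the striatal markers as closely (r = 0.81, rho = 0.84, permutation p = 1e-05 and 1e-05, adjusted p = 3.16e-05 and 5e-05, r = 0.73 without its 2 farthest pups), and Gad2 also followed the interneuron markers (r = 0.83, rho = 0.84, permutation p = 1e-05 and 1e-05, adjusted p = 3.16e-05 and 5e-05, r = 0.79 without its 2 farthest pups). Slc12a2 followed none of the 4 marker lists, with r between -0.16 and 0.25. These relations share library, dissection and depth, and whether they reflect the share of cells or RNA per cell was not tested.

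**Figure D5:**
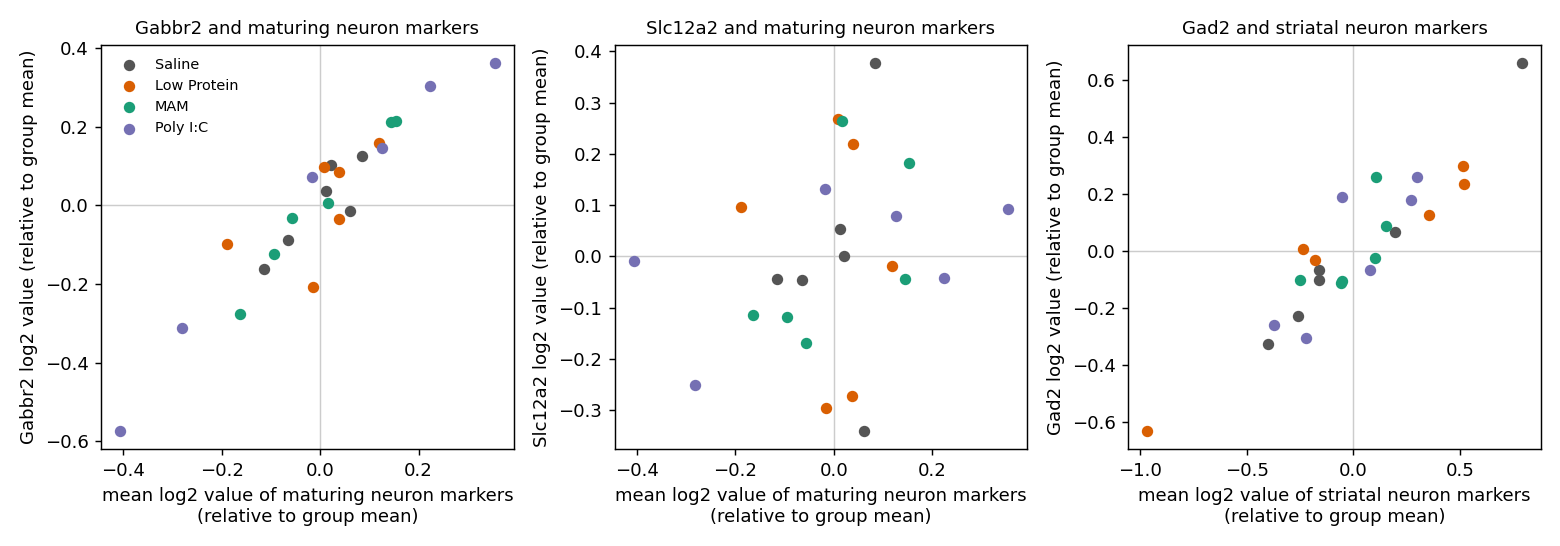
Log2 value of Gabbr2, Slc12a2 and Gad2 against the mean log2 value of a marker list, each relative to its group mean, with 1 point per pup coloured by group. Gabbr2 rises with markers of maturing neurons (r = 0.94), Slc12a2 scatters (r = 0.25) and Gad2 rises with striatal markers (r = 0.92).

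Mean interneuron and striatal marker scores were below the mean of all Saline pups in every treated group, as were most members. Not every marker list moved that way. The mean log2 score of interneuron markers relative to Saline was -0.24 for Low Protein, -0.14 for MAM and -0.18 for Poly I:C, and that of striatal markers was -0.26, -0.33 and -0.16. Their spread was wide, and the Saline mean includes pup 2.1, which scored 0.28 for interneuron and 0.79 for striatal markers. Group scores without that pup were not computed. The other Saline pups scored 0.20, -0.40, -0.16, -0.16 and -0.26 for striatal markers, and the Poly I:C mean of -0.16 lies among them. Striatal scores spanned -0.40 to 0.79 among Saline pups, -1.23 to 0.26 among Low Protein, -0.58 to -0.18 among MAM and -0.53 to 0.14 among Poly I:C pups. Of the 13 interneuron markers measured (Dlx6 was not tested), 5 were lower with Low Protein, 2 with MAM and 2 with Poly I:C at an unadjusted p under 0.05, and none was higher, against 4.43%, 7.64% and 5.35% of all genes called lower. Lhx6, a factor of interneurons from the medial ganglionic eminence, had log2 fold changes of -0.48, -0.34 and -0.23, and Sst, the peptide somatostatin of one interneuron class, -0.33, -0.17 and -0.65. Dlx1, Dlx5 and Npy were among the other interneuron markers with such a p in some group. Of the 10 markers of maturing neurons 2, 3 and 3 were lower (against the same shares of all genes), among them Syp (-0.18, -0.18 and -0.23) and Camk2a (-0.32, -0.14 and -0.58). The score of oligodendrocyte precursor markers was also lower in each group, at -0.35, -0.27 and -0.22, with all 5 genes below 0 in every comparison. That of radial glia was 0.043, -0.021 and 0.077, and that of cortical excitatory neurons 0.063, 0.027 and 0.078. Saline pup 2.1 scored -0.59 for cortical excitatory markers, which lowers the Saline mean that those values are set against. The other Saline pups scored -0.013, 0.24, 0.069, 0.21 and 0.089, and the 3 treated means lie among these, so their sign leans on that pup. The 4 measured thalamic markers stood at -0.29, -0.45 and 0.33, and single pups reached -2.06 in choroid plexus markers (Poly I:C) and 1.62 in meningeal markers (Low Protein). Neither of these lists, nor any other, held a gene past the adjusted threshold.

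The genes most like 4 members in their pup-to-pup pattern were ranked by Pearson's r over the 24 pups, group means subtracted, among 12650 genes detected in every pup, as a description. Gad1 was nearest to Nrsn2 (r = 0.93), Cbln4, Tubb2a, Atp1b1 and Cgref1. Slc32a1 was nearest to Cbarp (r = 0.93), Cpne5, Rap1gap, Ppfia4 and Nefl. For Slc12a5 the list was Magee1 (r = 0.95), Dnm1, Iqsec3, Tmem130 and Clstn3. Slc12a2 had a separate list of Tbl1xr1 (r = 0.90), Adam10, Frs2, Map2k1 and Tnpo1. None of the 8 members was among the 5 nearest genes of these 4, and no such list was made for the other 4. The nearest member was Slc12a5 for Gad1 (rank 140, with Slc32a1 at 265), Gad2 for Slc32a1 (rank 29) and Gabbr1 for Slc12a5 (rank 46).

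Other genes of GABA handling and chloride balance, 62 in all beside the members, were also counted. By the unadjusted threshold, 5 of them were lower and 1 higher in Low Protein (background 4.43% lower, 2.65% higher), 9 lower and 0 higher in MAM (7.64% and 2.15%), and 6 lower and 1 higher in Poly I:C (5.35% and 3.85%). None passed the adjusted threshold, and their median log2 fold changes were -0.086, -0.12 and -0.039. The genes listed together with Abat went opposite ways. Aldh5a1, which clears the product of Abat, had -0.30, -0.38 and -0.22, and Aldh9a1, of a side route to GABA from putrescine, had 0.20, 0.097 and 0.20. None of the 10 genes of glutamate and glutamine supply had an unadjusted p under 0.05 in any comparison.

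Among 14 tested genes of GABA-B signalling (Kctd12 was not tested), 1 was lower with Low Protein, 3 with MAM and 2 with Poly I:C at that threshold. In the same order, 4.43%, 7.64% and 5.35% of all genes were called lower, which is the background for every list here. Gnai1 and Gnao1, which encode G protein alpha subunits downstream of the receptor, had log2 fold changes of -0.20, -0.26 and -0.12 and of -0.22, -0.20 and -0.26. Rgs7, a regulator of these G proteins, had -0.17, -0.34 and -0.19. The beta subunit Gnb1 had -0.051, -0.089 and -0.039, and the gamma subunit Gng3 -0.087, -0.093 and -0.21. Gnb1 was among the genes called lower with MAM, and Gng3 among those with Poly I:C. Of the 9 cation-chloride cotransporters Slc12a5 alone passed the unadjusted threshold, with Low Protein. In the kinases and partners of these cotransporters 3 of 10 were lower in MAM and 0 in the other groups. The 3 were Wnk1, a chloride-sensing kinase (-0.26 in MAM), Oxsr1, the kinase it activates (-0.18), and Neto2, a partner protein of KCC2 (-0.19). In MAM 7.64% of all genes were called lower and 70.6% lay below 0. Among other chloride and bicarbonate genes, the anion exchanger Slc4a3 (-0.27, -0.093 and -0.34) and the bicarbonate transporter Slc4a10 (-0.091, -0.24 and -0.22) had such a p in some group. In the list of synapse scaffold genes, Dlgap1, which is not particular to inhibitory synapses, had -0.29, -0.28 and -0.36. Nlgn2, the neuroligin of inhibitory synapses, had -0.22, -0.13 and -0.18.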

How the data were processed

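RNA from hippocampus and neocortex of 24 pups was sequenced by the authors from stranded mRNA libraries (paired-end). Per the labels and the study's methods, reads were aligned to rn6 with STAR (2.4.1d) and quantified with Partek. The deposited values are TPM with an offset of 0.0001 added by the authors. They sum to 70350.1 in each pup, 20.9% lie at the offset, and they fall with genomic length. No depth was given, so reads were estimated from the steps of low values times the RefSeq gene span (49.2% to 54.3% of low values lay within 0.05 of a whole number, 10% by chance). The litter was read from the first number of the sample name.

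Log2 values were compared with limma 3.58.1 (lmFit, eBayes) in R 4.3.3, in 1 fit over all 24 pups with p-values adjusted (Benjamini-Hochberg) over 13371 genes above the offset in at least 18 pups. Single genes and the ratio were also tested by exact two-sided permutation of pups. The tests count pups of a litter as independent, so p-values measure the spread between pups. No count model was used. The scripts were tested on simulated data. Members and gene lists were chosen with earlier results of these data known. Genes outside the members were named if their unadjusted p was under 0.05 in a comparison with saline, at most 6 per list, with examples in the text, and some of these genes are not reported here. For 4 members the 5 most alike genes were named. Alternatives were other offsets, filters, scalings, variance models, litter and replicate terms, and fits without each pup and each litter.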

Additional observations from a re-analysis of the deposited data

Results flagged for a closer look

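Saline pup 2.1 lay far from the other 5 Saline pups in 4 of the 9 measures screened in that group (the 8 genes and the ratio). Chance alone marks about 1 in 20 groups, and these measures vary together, so the 4 are not independent. Its Gad2 value was 0.757 TPM (next pup 0.501), its Slc32a1 value 19.9 TPM (next 12.2), its Abat value 0.172 TPM (next 0.117) and its log2 ratio of Slc12a5 to Slc12a2 3.17 (next 2.39). The same pup had a striatal marker score of 0.79 and a cortical excitatory score of -0.59 relative to the Saline mean, and the part of tissue composition was not tested.

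The log2 value of Slc12a2 in MAM minus that in Poly I:C averaged -0.30 (exact permutation p = 0.0152). It did not pass after adjustment over all genes (limma adjusted p = 0.171), and 17.7% of all genes had an unadjusted p under 0.05 in this contrast.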

How the results depend on the processing

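Over 44 alternatives, 649 of 660 log2 fold changes of single members kept their direction, 11 reversed, and 1 passed the adjusted threshold (Gabbr2 in Poly I:C without litter 1). Low Protein Slc12a2, near 0, reversed to 0.022 under the median of ratios and to 0.00061 under the upper quartile. Members past the unadjusted threshold went to 0 in MAM under the median of ratios, the upper quartile and litter means, to 0 in Poly I:C with only the 2 groups compared and with litter means, and to 1 in Low Protein with litter means. The cause was not tested. Leaving out a pup or a litter gave 0 to 6 such members with Low Protein, 0 to 2 with MAM and 0 to 6 with Poly I:C. The difference in the log2 ratio of Slc12a5 to Slc12a2 then lay between -0.69 and -0.30 for Low Protein, between -0.36 and 0.030 for MAM and between -0.81 and -0.14 for Poly I:C. The Poly I:C member median lay between -0.48 and -0.0039, Gad1 there between -0.77 and 0.0013, Gabbr1 between -0.32 and 0.057, Gabbr2 between -0.55 and -0.056 and Slc12a5 between -0.72 and 0.068. Low Protein Slc12a2 ran from -0.13 to 0.12.

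With the filter of a mean above 1 in every group, 4 members stayed (Gad1, Slc32a1, Gabbr1 and Slc12a5), and 419, 572 and 506 of 5086 genes had an unadjusted p under 0.05 (Low Protein first, then MAM, then Poly I:C), against 947, 1309 and 1230 of 13371. Litter means gave 691 in MAM and 777 in Poly I:C. An offset of 1 shrank the member medians to -0.14, -0.13 and -0.098. The numbers shared between groups name no common dam, and same-numbered pups did not deviate together (mean correlations -0.019 to 0.077). A fit with the replicate number as a replicate block left 5, 2 and 1 members past the unadjusted threshold. Depth limits Abat most, at an estimated 263 reads in 1 pup.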
